A study of Mus musculus with 28 samples.

Results

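The genes of homologous recombination and of the Fanconi anemia pathway were followed in hair follicle stem cells of mice lacking Alkbh5, a demethylase that erases m6A, the commonest internal methyl mark of mRNA. The set holds 43 genes, chosen by symbol, and all 43 were listed among the 56691 genes of the bulge table, the 47243 of the hair germ SHERRY2 table and the 57010 of the hair germ SMART-seq table. All 43 also passed the filter on low values in each of these tables. Mice were wild-type (WT) or carried a conditional knockout of Alkbh5 (cKO), and all were at postnatal day 69. Cells were sorted from skin by flow cytometry, and there were 2 WT and 2 cKO mice in each of 3 datasets. Bulge stem cells, the reserve at the base of the resting follicle, and hair germ stem cells, which lie beneath them and divide first when hair growth starts, were measured by SHERRY2, which tags RNA/cDNA hybrids with a transposase. Hair germ stem cells were measured a second time by SMART-seq, which amplifies full-length cDNA. No source used here gives the Cre driver, the deleted exon or the sorting markers. The m6A libraries of the series were not analysed here.

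Homologous recombination repairs broken DNA by copying the intact sister chromatid, so it works mainly in S and G2 phase. The kinases Atm and Atr sense the damage, the Mre11a-Rad50-Nbn complex and Exo1 cut back the ends, Brca1, Palb2 and Brca2 prepare the end for strand exchange, and helicases and nucleases resolve the joined molecules. The Fanconi pathway repairs cross-links between the DNA strands: a core complex attaches ubiquitin to Fancd2 and Fanci, which recruit nucleases, and recombination completes the repair. Many of these genes are transcribed most in dividing cells. Hair follicle stem cells are mostly at rest in telogen and enter division at the start of hair growth.

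Alkbh5 itself measured 107 and 96.1 CPM (reads relative to library size, with TMM scaling) in the WT bulge libraries and 4.21 and 2.38 in the cKO libraries. In hair germ SHERRY2 it measured 93 and 47.4 normalized counts in WT and 19.8 and 13.1 in cKO. In SMART-seq it measured 136 and 94.2 CPM in WT and 83.5 and 106 in cKO, so the genotype groups overlapped and the cKO mean was 82.1% of WT. The SMART-seq libraries are therefore called libraries labelled cKO below.

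Bulge libraries held 14676168 to 21187283 reads in genes, SMART-seq libraries 9001396 to 14416601, and hair germ SHERRY2 libraries 488648 to 2317407. By Xist and Y-linked genes, 1 of the 4 bulge mice was male (WT mouse 2), as was 1 hair germ SHERRY2 mouse (cKO mouse 1) and mouse 2 of each genotype in SMART-seq. The follicle keratin gene Krt15 measured 4736 to 8316 CPM in the bulge, 2813 to 10919 normalized counts in hair germ SHERRY2 and 3409 to 8514 CPM in SMART-seq. Of 7 hair germ markers, 4 (Lgr5, Gli1, Runx1 and Krt17) were higher in every SMART-seq library than in every bulge library, as for Runx1 with 237 to 358 CPM against 29.9 to 57.9, while Cdh3, Lgr6 and Bmpr1a overlapped. Hair germ SHERRY2 values are on another scale and were not set against these. The endothelial gene Tie1, which these cells should lack, was at 0 in all 4 SMART-seq libraries and at 14.7 to 23.7 normalized counts in hair germ SHERRY2, where Rad54b measured 7.91 to 22.05. In these bulk samples, fewer cells of a type and less RNA per cell cannot be told apart. The p-values measure the spread between 2 mice of a genotype.

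In bulge stem cells, 7 of the 43 genes were higher in cKO and 0 lower past an adjusted p of 0.05 (edgeR's quasi-likelihood test, Benjamini-Hochberg over 15672 genes). Over all genes tested, 1.44% were higher at this threshold. The 7 genes were the translocase gene Rad54l, the mediators Brca2 and Bard1, the helicase genes Blm and Brip1, the Fanconi gene Fancd2 and the Atr activator Topbp1. The 43 genes had a median log2 fold change of 0.68, against -0.01 over all genes tested, and 37 of 43 were positive, against 48.9% of all genes. At an unadjusted p under 0.05, 27 of the 43 were higher and 0 lower, against 8.74% of all genes higher. In TMM-scaled CPM both cKO libraries lay above both WT libraries for 34 of 43 genes, against 24.8% of all genes. They lay below them for 3, against 26.4%.

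The 7 calls needed both WT libraries. Without WT mouse 1 none of the 7 passed, and 5 other genes did (Atm, Exo1, Fanca, Rad54b and Slx4), against 1.29% of all genes higher. Without the male WT mouse 2 the count was 0 of 43, against 0.422% of all genes (edgeR). It was 23 without cKO mouse 1, all 7 included (4.69% of all genes were higher there), 10 without cKO mouse 2, 5 of the 7 included and Topbp1 and Brip1 not (2.07%), and 19 in DESeq2 (2.11%). Without the filter on low counts it was 19 (2.7%), and with upper-quartile scaling 9 (1.73%). The median stayed between 0.49 and 0.77 when 1 library was left out, and it was lowest without cKO mouse 2.

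**Figure D1:**
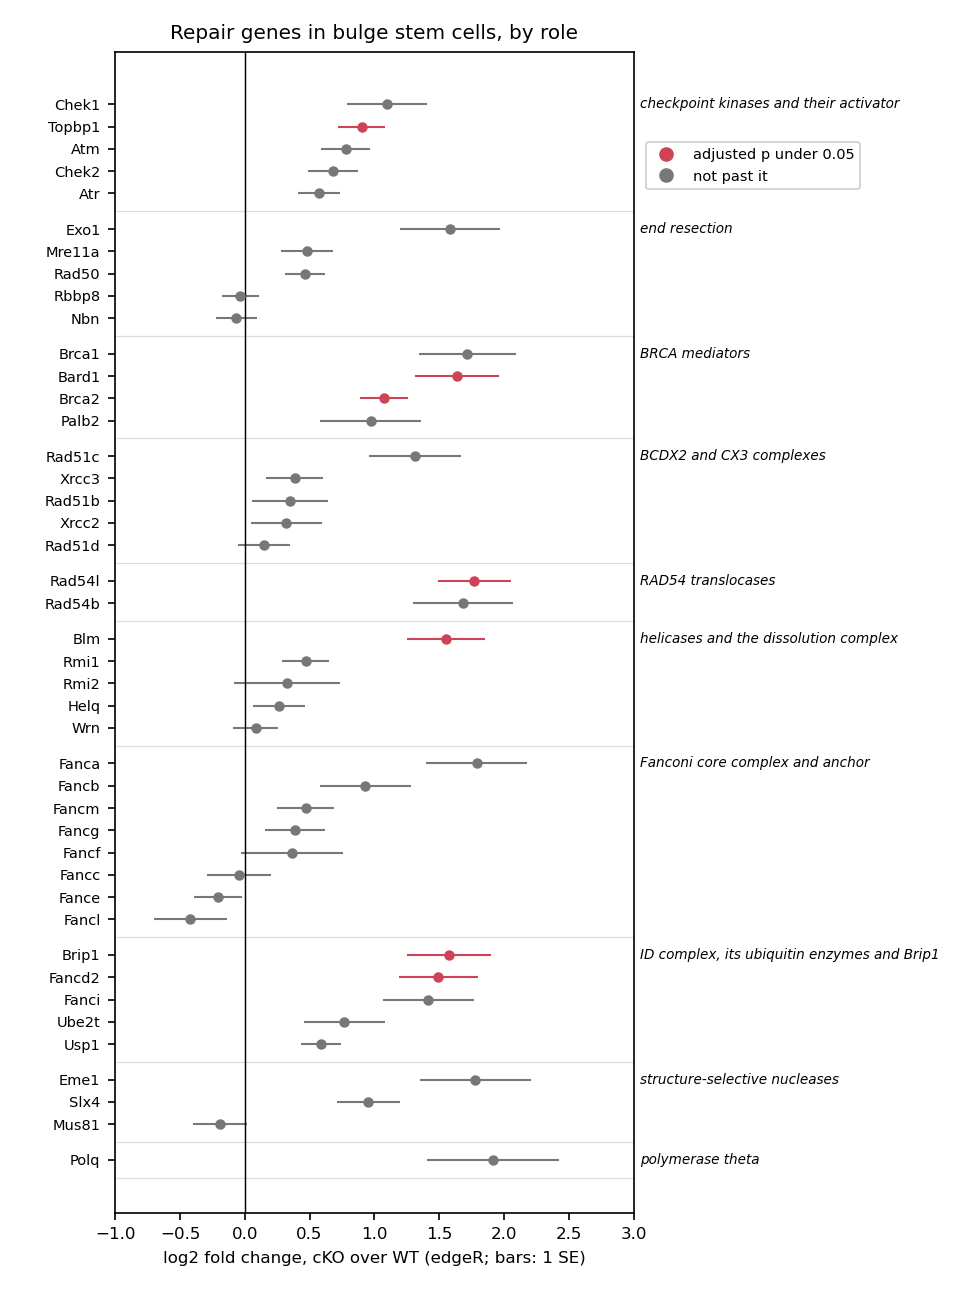
Log2 fold change of cKO over WT in bulge stem cells for the 43 genes (x axis; points are edgeR estimates, bars 1 standard error), grouped by role. The 7 genes past an adjusted p of 0.05 lie between 0.90 and 1.77, while Fancl is lowest at -0.42 and Polq highest at 1.92 with a wide error.

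The 4 genes with the lowest bulge p among those in the RefSeq promoter table (build GRCm38.p6) are shown by the 300 bases around their start, 250 before and 50 after, 5' to 3' on the strand of the gene. Capitals mark matches to 3 motifs of genes transcribed in dividing cells: the E2F motif TTTNNCGC, the CHR motif TTTGAA and the CCAAT box, each searched on both strands.
Rad54l, chr4:116123641-116123940, minus strand: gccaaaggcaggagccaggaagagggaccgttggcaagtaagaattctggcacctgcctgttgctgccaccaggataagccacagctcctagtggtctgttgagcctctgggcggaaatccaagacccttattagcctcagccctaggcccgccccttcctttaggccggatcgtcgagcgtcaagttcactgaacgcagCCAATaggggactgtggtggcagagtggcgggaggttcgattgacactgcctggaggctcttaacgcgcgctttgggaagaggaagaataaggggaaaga
Brca2, chr5:150522371-150522670, plus strand: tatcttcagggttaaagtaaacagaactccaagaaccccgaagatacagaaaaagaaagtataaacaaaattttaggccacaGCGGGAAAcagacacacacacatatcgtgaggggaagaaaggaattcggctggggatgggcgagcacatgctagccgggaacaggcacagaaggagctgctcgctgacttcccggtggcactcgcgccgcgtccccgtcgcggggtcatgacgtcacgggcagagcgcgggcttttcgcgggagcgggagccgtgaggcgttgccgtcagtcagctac
Blm, chr7:80534949-80535248, minus strand: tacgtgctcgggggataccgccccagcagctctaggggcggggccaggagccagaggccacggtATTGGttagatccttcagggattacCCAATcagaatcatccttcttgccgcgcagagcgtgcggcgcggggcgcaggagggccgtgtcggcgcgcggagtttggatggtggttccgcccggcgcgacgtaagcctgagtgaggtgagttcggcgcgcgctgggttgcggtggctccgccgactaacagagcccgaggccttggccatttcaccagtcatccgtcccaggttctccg
Bard1, chr1:71102923-71103222, minus strand: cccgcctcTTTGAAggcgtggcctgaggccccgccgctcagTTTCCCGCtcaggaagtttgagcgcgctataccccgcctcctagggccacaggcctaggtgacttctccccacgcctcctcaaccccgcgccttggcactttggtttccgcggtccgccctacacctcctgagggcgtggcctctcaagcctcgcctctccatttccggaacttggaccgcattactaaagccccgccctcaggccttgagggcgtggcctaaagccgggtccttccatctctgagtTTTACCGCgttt

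The window of Rad54l holds a CCAAT box at -50 to -46 from the start, and a further entry of this gene starts 1 base away. That of Brca2 holds the E2F letters on the opposite strand at -168 to -161. That of Blm holds the CCAAT letters on the opposite strand at -186 to -182 and on the gene's strand at -161 to -157. The window of Bard1 holds the CHR letters at -242 to -237 and the E2F letters at -209 to -202 and at 38 to 45. No match of one motif overlapped one of another in these windows.

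Of the 43 genes, 32 had an entry in the promoter table. The E2F letters were in 8 of these 32 (25.0%), against 5.93% of 27025 genes with an entry and 7.16% of 17492 coding genes. The 8 were Bard1, Brca2, Brip1, Chek2, Fancg, Rad51c, Rmi1 and Topbp1. The CCAAT box was in 19 of 32 (59.4%), against 41.1% of all genes and 42.3% of coding genes. The CHR letters were in 4 of 32 (12.5%), against 20.2% and 18.5%. A match says only that the letters are there, not that a factor binds. Rad50, Nbn, Rbbp8, Exo1, Rad51d, Xrcc2, Rad54b, Wrn, Rmi2, Fancd2 and Usp1 had no entry.

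In the checkpoint group all 5 genes were positive, with a median log2 fold change of 0.78, and 1 rose past the adjusted threshold. Topbp1, the scaffold protein that switches Atr on, measured 76.3 and 72.5 CPM in WT and 117 and 160 in cKO. It rose by 0.90 on the log2 scale (SE 0.18, adjusted p = 0.0465, edgeR), with both cKO libraries above both WT libraries. The gene (ENSMUSG00000032555) lies at 103182414 to 103227627 of chromosome 9 in the bulge table, which names no build. Positions in that table do not match those of the promoter windows. For Rad54l, Brca2 and Blm the window lies outside the span of the gene in the bulge table.

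Atm, the kinase that answers double-strand breaks, measured 37.8 and 28.2 CPM in WT and 58.8 and 54.6 in cKO. The groups did not overlap, and the log2 fold change of 0.78 (SE 0.19) did not pass (adjusted p = 0.0729, edgeR). Atr, the kinase that answers stalled replication forks, measured 30.2 and 33.0 CPM against 45.6 and 48.4. Its log2 fold change was 0.57 (adjusted p = 0.106, edgeR). Chek1, the effector kinase of Atr, measured 9.56 and 6.12 CPM against 14.2 and 19.5 (log2 1.10, adjusted p = 0.108, edgeR). Chek2, the effector kinase of Atm, had a log2 fold change of 0.68.

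End resection genes were split. Exo1, the long-range exonuclease, had a log2 fold change of 1.58. The scaffold subunit Nbn and the resection starter Rbbp8 (CtIP) were at -0.07 and -0.03, with libraries that overlapped in CPM. In the authors' FPKM (reads scaled by exon length and library size) both cKO libraries of each lay above both WT libraries. Nbn was at 15.2 and 14.4 FPKM in WT and 15.6 and 16.2 in cKO, and Rbbp8 at 10.5 and 11.6 against 11.9 and 12.3. Mre11a, the nuclease subunit, and Rad50, its ATPase partner, lay at 0.48 and 0.46, with both cKO libraries above both WT libraries. None of the 5 passed the adjusted threshold, and Exo1, Mre11a and Rad50 had an unadjusted p under 0.05.

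The BRCA mediators, which prepare single-stranded DNA for strand exchange, were all positive, with a median log2 fold change of 1.36 and 2 of 4 past the threshold. Brca2, the central mediator at the break, measured 13.4 and 14.2 CPM in WT and 28.1 and 30.0 in cKO. The mice of each genotype lay close together, at 13.8 ± 0.502 and 29.1 ± 1.35 CPM (mean ± SD, n = 2 each), and Brca2 rose by 1.07 on the log2 scale (SE 0.19, adjusted p = 0.029, edgeR). The gene (ENSMUSG00000041147, chromosome 5, 150446095 to 150493794 in the bulge table) overlaps the span of the predicted gene Gm42531 on the same strand. Overlaps were judged by whole gene spans, introns included, so whether counted reads are shared was not tested.

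Bard1, the partner of Brca1 in a ubiquitin ligase, measured 5.98 and 5.48 CPM in WT and 13.1 and 22.5 in cKO. It rose by 1.64 (SE 0.32, adjusted p = 0.0438, edgeR), with cKO mouse 2 the highest library. It lies at 71066657 to 71142305 of chromosome 1 in the bulge table (ENSMUSG00000026196). Brca1 itself measured 8.43 and 5.62 CPM in WT and 15.3 and 31.1 in cKO. Its log2 fold change of 1.72 was larger than that of Brca2, but cKO mouse 2 was far above cKO mouse 1, and Brca1 did not pass (SE 0.38, adjusted p = 0.0574, edgeR). Upper-quartile scaling in place of TMM took Brca1 past the threshold (adjusted p = 0.0446, edgeR). Palb2, which links Brca1 to Brca2, had a log2 fold change of 0.97 and did not pass.

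Among the paralog genes Rad51b, Rad51c, Rad51d, Xrcc2 and Xrcc3, whose products form complexes that assist strand exchange, 0 of 5 passed and the median was 0.35. Rad51c, part of both paralog complexes, stood apart at 1.31, while the other 4 lay between 0.15 and 0.38. Both cKO libraries were nonetheless above both WT libraries for all 5.

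The RAD54 translocases, motors that drive strand exchange, had a median log2 fold change of 1.73, the largest of the role groups with more than 1 gene. Rad54l measured 5.06 and 5.19 CPM in WT and 14.5 and 20.4 in cKO. The WT mean was 5.13 ± 0.0929 CPM and the cKO mean 17.5 ± 4.14 (± SD over 2 mice). Rad54l thus rose 3.41-fold, or by 1.77 on the log2 scale (SE 0.28), with the lowest adjusted p of the 43 genes (0.023, edgeR). Rad54l (ENSMUSG00000028702; chromosome 4, 115951461 to 115980887 in the bulge table) overlaps Lrrc41 on the opposite strand. No source used here says whether counting used strand, and shared exons were not looked for. Whether reads of such pairs are mixed was therefore not tested. Rad54b, its paralog, measured 7.36 and 3.34 CPM in WT and 15.2 and 19.6 in cKO, with the WT mice farther apart than for Rad54l. Its log2 fold change was 1.68 (SE 0.39, adjusted p = 0.0643, edgeR). Rad54b overlaps the span of Fsbp on the same strand and that of Gm11832 on the opposite strand.

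Blm, the helicase lost in Bloom syndrome, dissolves double Holliday junctions. It measured 6.64 and 5.12 CPM in WT and 14.0 and 20.6 in cKO, and rose by 1.55 (SE 0.30, adjusted p = 0.042, edgeR). Blm (ENSMUSG00000030528; chromosome 7, 80104481 to 80184867 in the bulge table) overlaps the low pseudogene Ndufab1-ps on the opposite strand. Its partners Rmi1 (0.47) and Rmi2 (0.33), the Werner syndrome helicase Wrn (0.08) and the helicase Helq (0.27) did not pass, and the libraries of Rmi2 and Wrn overlapped between genotypes.

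The Fanconi core complex, the ubiquitin ligase of the pathway, had a median log2 fold change of 0.38, with 3 of 8 genes negative and 0 of 8 past the threshold. Its catalytic subunit Fancl was at -0.42 and Fance at -0.21, each with both cKO libraries below both WT libraries. Fancc, at -0.04, overlapped. Fanca, a scaffold subunit, was the exception, with 5.32 and 2.84 CPM in WT and 11.3 and 17.2 in cKO. The groups of Fanca did not overlap, and its log2 fold change of 1.79 (SE 0.39) was just short of the threshold (adjusted p = 0.0551, edgeR), which it passed with upper-quartile scaling (adjusted p = 0.0446, edgeR). Fanca overlaps Zfp276 on the opposite strand. X-linked Fancb (0.93), the anchor helicase Fancm (0.47), Fancg (0.39) and Fancf (0.36) made up the rest.

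The substrates of the core complex and the enzymes around them were all positive, all 5 at an unadjusted p under 0.05, and 2 passed. Fancd2, the subunit whose ubiquitin marks the activated pathway, measured 7.11 and 9.46 CPM in WT and 17.5 and 29.0 in cKO. It rose by 1.49 (SE 0.31, adjusted p = 0.0472, edgeR) and lies at 113508643 to 113573978 of chromosome 6 in the bulge table (ENSMUSG00000034023). Brip1, the helicase that binds Brca1, measured 6.34 and 5.12 CPM in WT and 12.9 and 21.3 in cKO.

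Brip1 rose by 1.57 (SE 0.32, adjusted p = 0.0475, edgeR; ENSMUSG00000034329, chromosome 11, 85948964 to 86092019 in the bulge table). Fanci, the partner of Fancd2, was at 1.42 (adjusted p = 0.0788, edgeR). Fanci overlaps the span of Polg on the opposite strand, which held 7074 reads over the bulge libraries against 801 for Fanci. The ubiquitin-conjugating enzyme Ube2t was at 0.77 and Usp1, which removes the ubiquitin again, at 0.59. The groups of Fanci, Ube2t and Usp1 did not overlap either.

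Of the nucleases that cut joined molecules, Eme1 (1.78) and the scaffold Slx4 (0.95) differed from their partner Mus81 (-0.19), which forms the active enzyme with Eme1. None of these 3 passed. Eme1 overlaps Lrrc59 and Mrpl27 on the opposite strand. Polq, the polymerase of an error-prone end-joining route that acts where recombination fails, measured 4.80 and 1.92 CPM in WT and 8.54 and 17.2 in cKO. It had the highest log2 fold change of the 43, 1.92, but also a large error (SE 0.51, adjusted p = 0.0942, edgeR).

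**Figure D2:**
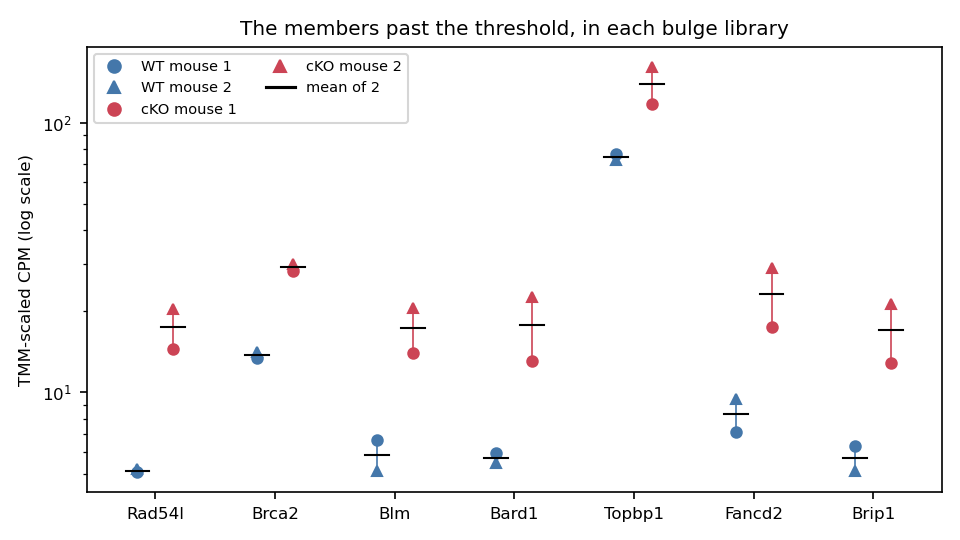
TMM-scaled CPM (log axis) of the 7 genes past the threshold in each bulge library; circles are mouse 1, triangles mouse 2, black lines the mean of 2 mice. For each gene both cKO libraries lie above both WT libraries, and cKO mouse 2 is the higher cKO library, by least for Brca2 (28.1 and 30.0).

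The genotype difference was graded by mouse. In cKO mouse 2 the level was above that of cKO mouse 1 for 34 of 43 genes, against 50.3% of all genes. Summed over the 43 genes the level was 870 and 821 CPM in WT and 1135 and 1342 in cKO. Genes of dividing cells, 16 genes such as Mki67 and Top2a that hold none of the 43, followed the same order, with summed levels of 838 and 689 CPM in WT and 1195 and 2005 in cKO.

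All 16 dividing cell genes were positive in the bulge, with a median log2 fold change of 1.13, and 4 rose past the threshold (Rrm2, Tk1, Mki67 and Top2a). Mki67, a protein of dividing cells, measured 145 and 114 CPM in WT and 235 and 405 in cKO (log2 1.30, adjusted p = 0.0465, edgeR). Top2a, the topoisomerase of dividing cells, measured 139 and 125 CPM against 226 and 385 (log2 1.21, adjusted p = 0.0472, edgeR). Rrm2, a subunit of the nucleotide reductase, and Tk1, a thymidine kinase, had log2 fold changes of 1.65 and 1.48. Pcna, the sliding clamp of replication, was at 0.31 and did not pass. The part of dividing cells in the repair gene result was not tested.

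Immune markers moved the other way in the same libraries. Of 8 listed markers 7 could be tested and all 7 were negative, 4 of them fell past the threshold (Cd74, H2-Aa, H2-Ab1 and Cd83), and the summed level was 270 and 210 CPM in WT and 90.5 and 50.1 in cKO. The pan-leukocyte gene Ptprc measured 4.96 and 5.83 CPM against 3.28 and 0.999. Of 7 markers of differentiated epidermis 6 were negative, with a median of -0.76, and 1 fell, Krtdap (325 and 300 CPM in WT, 189 and 181 in cKO), while the summed level was 5619 and 5896 CPM against 5503 and 5156. Of 7 hair germ markers 5 were negative, with a median of -0.38 and a summed level of 1571 and 1802 CPM against 1305 and 1007. None of these 7 passed, and 4 had an unadjusted p under 0.05 (edgeR). Of 10 bulge stem cell markers 7 were negative, with a median of -0.19, and none passed. Their summed level was 37072 and 34086 CPM in WT and 26604 and 30290 in cKO. The part of these cell types in the repair gene result was not tested either.

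Levels per transcript length set the 43 genes apart more widely than the genotypes did. In the authors' FPKM (reads scaled by exon length and library size), Usp1 was highest in WT bulge cells with 15.2 and 16.4, followed by Nbn with 15.2 and 14.4 and Rbbp8 with 10.5 and 11.6. Polq was lowest with 0.46 and 0.19, below Fanca with 0.56 and 0.31 and Exo1 with 0.58 and 0.30. The WT mice of these lowest 3 genes spread over a range wider than the gaps between their means (0.33, 0.44 and 0.44 FPKM), so their order is not resolved.

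The 16 genes with a mean under 2 FPKM over the 4 libraries had a median log2 fold change of 1.48, from 0.32 (Xrcc2) to 1.92 (Polq), and 11 were at 1 or more. The 27 genes at 2 FPKM or more had a median of 0.46, from -0.42 to 1.68, and 4 were at 1 or more. The threshold was passed by 4 of the 16 and 3 of the 27, against 1.44% of all genes at any level. Shares of all genes at the same levels were not computed, so whether this contrast is particular to the 43 was not tested. In all, 15 of the 43 were at a log2 fold change of 1 or more, against 5.69% of all genes tested, and 19 lay between -0.5 and 0.5.

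**Figure D3:**
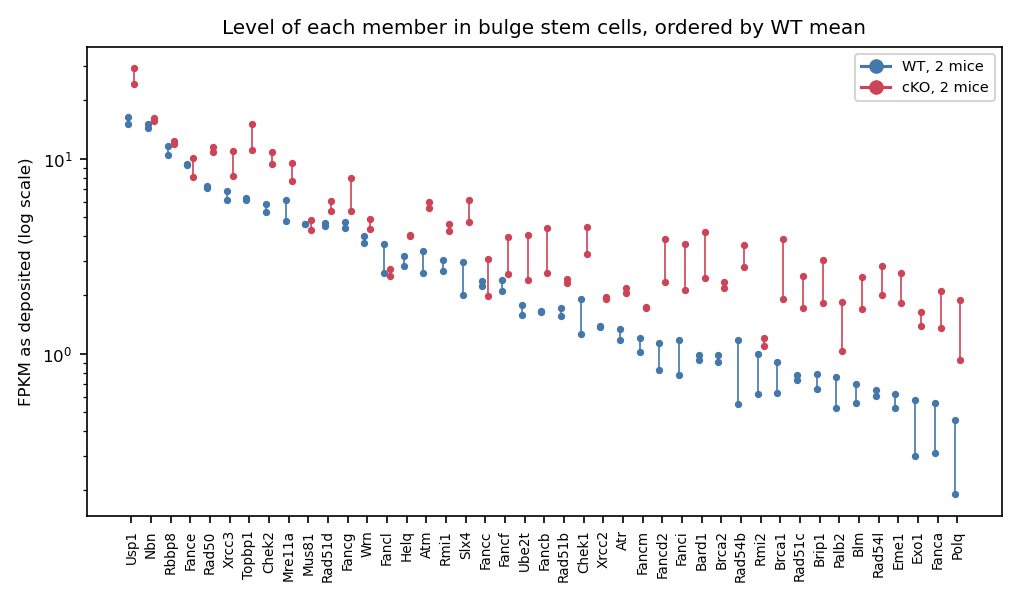
FPKM as deposited (log axis) of each of the 43 genes in the 2 WT and 2 cKO bulge libraries, ordered by the WT mean. The gap between genotypes is widest among the low genes at the right, such as Fanca and Polq, and small for Nbn and Rbbp8 at the left.

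The neighbouring repair genes outside the 43 gave a mixed picture in the bulge. Of 20 tested other genes of homologous recombination, 13 were positive, 3 rose, 0 fell and the median was 0.34. The 3 were the strand-exchange factor Rad51ap1 (log2 1.82, adjusted p = 0.0227, edgeR), the nuclease Dna2 (1.83) and the fork protein Tonsl (1.58). Rad52 was at -0.06 with overlapping libraries, and Rpa1, a subunit of the single-strand binding protein, was at 0.56 and did not pass. Of 13 other Fanconi pathway genes, 1 rose, the translesion polymerase gene Rev1 (log2 1.54, adjusted p = 0.00659, edgeR), and the median was 0.19.

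Of 18 other genes of Atm and Atr signalling, 1 rose, Clspn (Claspin, which couples Atr to Chek1; log2 2.09, adjusted p = 0.0184, edgeR), with a median of 0.09. Of 13 genes of end joining, the route that rejoins breaks without a template, 1 rose, the kinase gene Prkdc (log2 0.86, adjusted p = 0.0465, edgeR), and the median was 0.25. Of 10 p53 target genes all were positive and 6 rose, among them the cell cycle inhibitor Cdkn1a (272 and 223 CPM in WT, 493 and 533 in cKO; log2 1.05, adjusted p = 0.0249, edgeR).

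In the SHERRY2 libraries of the hair germ, 0 of the 43 genes passed the threshold in limma, against 0.0077% of 38953 genes tested. At an unadjusted p under 0.05 there was 1 of 43, Fancf, against 4.62% of all genes. edgeR on the whole reads recovered from the normalized values called 0 of the 42 genes it could test, against 0.377% of all genes, and 0 had an unadjusted p under 0.05, against 4.93%. DESeq2 on those reads called 0 of 43, against 0.0% of all genes, and 0 of 43 had an unadjusted p under 0.05, against 0.8%. None of the 43 (0) had a p under 0.05 in the authors' deposited table, where the smallest was 0.111.

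The shift over the 43 genes differed between tests here, which also differed in scaling. The values given to limma and the reads in DESeq2 were scaled by a size factor per library, those in edgeR by TMM. The part of the scaling was not tested. In limma 38 of 43 were positive, against 53.1% of all genes, with a median of 0.35, against 0.06. In edgeR on recovered reads 22 of 42 were positive, against 47.8% of all genes, with a median of 0.07. In DESeq2 on the same reads 38 of 43 were positive, against 52.3% of all genes, with a median of 0.32. The limma median was 0.17 without WT mouse 2, 0.18 without cKO mouse 2 and 0.53 without cKO mouse 1. Both cKO libraries lay above both WT libraries for 12 of 43, against 16.4% of all genes, and below for 1, Blm, against 16.4%.

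Depth was low. Fancf, a core complex subunit, measured 7.83 and 1.58 normalized counts in WT and 11 and 9.80 in cKO, from 8 and 1 reads against 15 and 12. All 4 values lay below those of the endothelial gene Tie1 in these libraries. Its log2 fold change on the log2(value + 1) scale was 1.25 (SE 0.62, adjusted p = 0.97, limma). The next 4 by p were Rad50, Chek2, Rad51c and Nbn.

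Rad50 measured 184 and 49.0 normalized counts in WT and 201 and 333 in cKO, so WT mouse 2, the shallowest library, stood apart from the other 3. Chek2 measured 15.7 and 20.6 in WT and 20.5 and 53.9 in cKO, with cKO mouse 2 alone high. Rad51c measured 10.8 and 14.2 in WT and 25.7 and 19.6 in cKO, which did not overlap. These values, from 11 and 9 reads against 35 and 24, lay near those of Tie1. Nbn measured 83.2 and 23.7 in WT and 61.6 and 118 in cKO, which overlapped. All 4 had an adjusted p of 0.97 (limma).

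Of the 7 genes that rose in the bulge, Topbp1 measured 90.02 and 66.4 normalized counts in WT and 99.7 and 130 in hair germ SHERRY2 cKO, and Rad54l 17.6 and 25.3 against 27.9 and 27.8. The groups of these 2 genes did not overlap in normalized counts. In edgeR on recovered reads their log2 fold changes were 0.26 (SE 0.56) for Topbp1 and 0.08 (SE 0.59) for Rad54l. Blm went the other way, with 30.3 and 34.8 in WT and 26.4 and 18.8 in cKO. Brca2 (106 and 41.1 against 89.5 and 92.3), Bard1, Fancd2 and Brip1 overlapped. Summed over the 43 genes the level was 1887 and 1423 normalized counts in WT and 1785 and 2579 in cKO. The 16 dividing cell genes summed to 1246 and 1240 against 933 and 2667, so cKO mouse 2 was highest in both on this scale. Normalized counts are reads divided by a size factor, which was 1.02 and 0.632 in WT and 1.36 and 1.22 in cKO. Total reads were 1513001 and 488648 in WT and 1526070 and 2317407 in cKO, so the factors did not follow the totals. Sums relative to total reads were not computed.

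**Figure D4:**
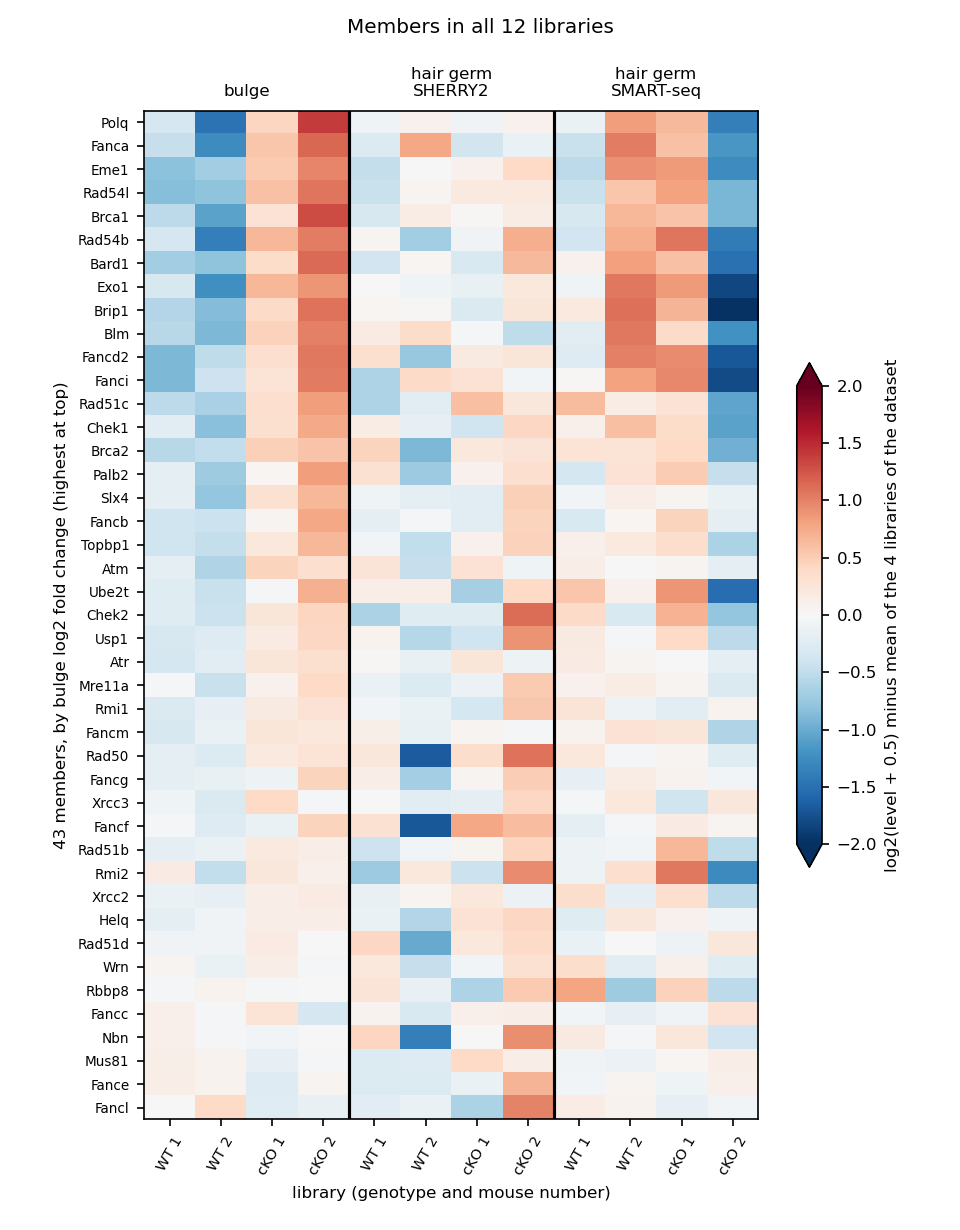
Level of the 43 genes in all 12 libraries, as log2(level + 0.5) minus the mean of the 4 libraries of the dataset (colour), with genes ordered by bulge log2 fold change from top to bottom. The upper genes are high in both bulge cKO libraries, show no common pattern in hair germ SHERRY2, and in SMART-seq are high in WT mouse 2 and labelled cKO mouse 1 and low in labelled cKO mouse 2.

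In the SMART-seq libraries of the hair germ, 0 of 43 genes passed in edgeR, against 0.0% of 17547 genes, and 0 of 43 had an unadjusted p under 0.05, against 1.02% of all genes. The median was -0.16, against -0.02 over all genes, with 13 of 43 positive, against 48.0% of all genes. Both libraries labelled cKO lay above both WT libraries for Fancf and Mus81 alone (11.8% of all genes did), and below for Atr, Mre11a and Fancl (12.4% of all genes did). Leaving out 1 library moved the median between -0.67 (without cKO mouse 1) and 0.12.

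The 5 genes with the lowest p were Fancc, Blm, Rad51c, Atr and Mre11a, each with an adjusted p of 1 (edgeR). Fancc measured 50.5 and 46.8 CPM in WT and 50.4 and 64.6 in the libraries labelled cKO. Blm measured 9.45 and 23.3 against 14.5 and 4.47, so mice of one label differed by more than the group means did (log2 -0.78, SE 0.69). Rad51c measured 6.16 and 4.27 against 4.75 and 1.57 and overlapped as well.

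Atr measured 63.9 and 59.4 CPM in WT and 56.7 and 49.98 in the libraries labelled cKO, and Mre11a 34.0 and 35.2 against 33.1 and 26.1. Their groups did not overlap, and their log2 fold changes were small, -0.21 and -0.22.

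The spread of SMART-seq lay between mice of the same label. Labelled cKO mouse 2 was the lowest of the 4 libraries for 31 of 43 genes, against 30.0% of all genes, and labelled cKO mouse 1 was at least 2-fold above it for 20 of 43, against 11.0%. Fanci measured 7.31 CPM in labelled cKO mouse 1 and 0.671 in labelled cKO mouse 2, a ratio of 10.9 that rests on 100 and 6 reads. Brip1 and Exo1 each measured 8.34 and 0.894 CPM in these mice, from 114 and 8 reads. Fancd2 measured 9.58 and 1.12 CPM.

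Brca1, with 22.9 and 7.83 CPM, and Polq, with 10.1 and 2.12, showed the same order, while Fancc, Rad51d, Xrcc3, Rmi1, Fance, Fancl and Mus81 were higher in labelled cKO mouse 2. In WT, 28 of 43 genes were higher in mouse 2 than in mouse 1, against 49.9% of all genes. Brca1 measured 12.1 CPM in WT mouse 1 and 24.3 in WT mouse 2. The 16 dividing cell genes summed to 513 and 984 CPM in WT mice 1 and 2 and to 972 and 173 in labelled cKO mice 1 and 2. That is the order of libraries of Brca1, but not of the sum over the 43 genes. The 43 genes summed to 952 and 914 CPM in WT and to 1006 and 675 in the libraries labelled cKO. Labelled cKO mouse 2 was also highest in the summed immune markers (41.7 and 23.4 CPM in WT, 40.3 and 131 in labelled cKO) and in the melanocyte markers (156 and 167 against 76.2 and 266). The part of these genes in the spread was not tested.

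Genes with a large genotype difference in the bulge tended also to differ between SMART-seq mice of one label. Across the 43 genes, the bulge log2 fold change and the log2 ratio of labelled cKO mouse 1 over mouse 2 had a Pearson's r of 0.756 and a Spearman's rho of 0.74. With the ratio of WT mouse 2 over mouse 1 they were 0.736 and 0.666. Across 14020 genes tested in both datasets r was 0.04 and 0.119. These are descriptions across genes, which are not independent replicates: the 43 points share the same 4 bulge libraries on one axis and the same pair of SMART-seq libraries on the other, and no library is on both axes.

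**Figure D5:**
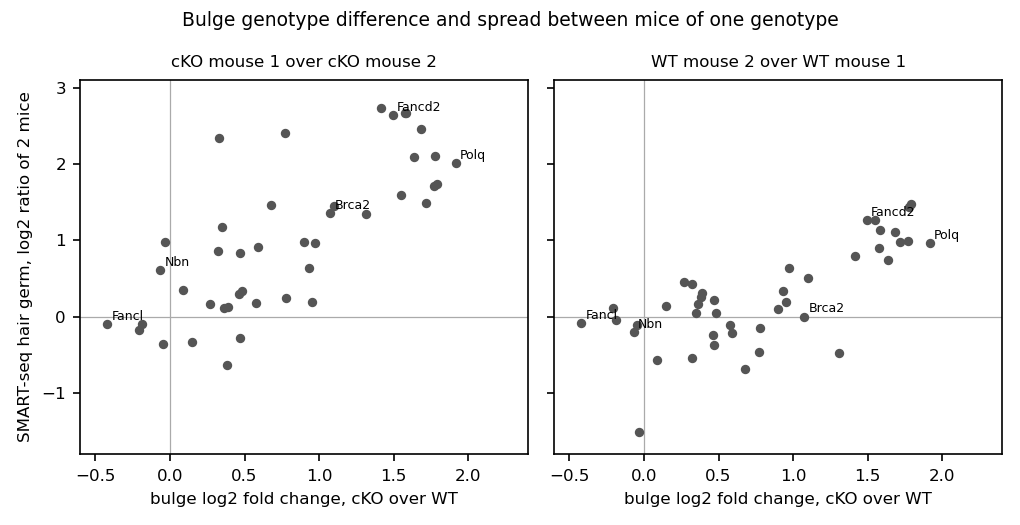
Bulge log2 fold change of cKO over WT (x axis) against the log2 ratio of 2 SMART-seq mice of one label (y axis; levels + 0.5 CPM), labelled cKO mouse 1 over 2 at left and WT mouse 2 over 1 at right; each point is 1 of the 43 genes. Fancd2 and Polq are high on both axes in both panels, and Nbn and Fancl lie near 0 on the x axis or below it.

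Whether the genotype difference itself differed between datasets was tested with a dataset-by-genotype term in joint edgeR fits. For the bulge minus SMART-seq, 0 of 43 genes passed an adjusted p of 0.05, against 0.0425% of 18806 genes, and the smallest adjusted p of the 43 was 0.605. At an unadjusted p under 0.05 there were 10 of 43 with the higher change in the bulge, against 3.42% of all genes, and 0 with the lower. The median difference was 0.78, against 0.04 over all genes. Atm and Atr were among the 10, with differences of 0.91 and 0.79 on the log2 scale.

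For the bulge minus hair germ SHERRY2, on recovered reads, 0 of 43 passed, against 0.119% of 26139 genes, and 14 of 43 had an unadjusted p under 0.05 with the higher change in the bulge, against 3.99% of all genes, and 0 with the lower. The median difference was 0.78, against 0.20 over all genes. Fanca had the lowest p, with a difference of 2.84 (adjusted p = 0.156, edgeR), followed by Blm with 2.43 (adjusted p = 0.221). Without hair germ SHERRY2 WT mouse 1, 4 of 43 passed (Blm, Brca1, Brip1 and Fanca), against 2.46% of all genes. In that library the 7 differentiated epidermis markers summed to 19966 normalized counts, against 1760 to 8173 in the other 3, and their part was not tested. Fanca alone passed without bulge WT mouse 1, against 0.327% of all genes, and without bulge cKO mouse 1, against 0.5%. In both comparisons cell type, mice, sequencing, read depth and RNA input (200 ng for the bulge, 40 ng for the hair germ) differ together. Against SMART-seq the library method differs too, so none of these can be told apart. Alkbh5 also overlapped between the SMART-seq groups, so the genotype difference there is one between labels.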

How the data were processed

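The 12 RNA-seq libraries were used. Per the submitters' processing notes, the tools included Trim Galore, STAR, featureCounts and DESeq2 with GRCm38 and mm10, and for the SMART-seq batch also fastp, HISAT2 and GRCm39. No source used here gives their versions, the annotation or the strand setting. The authors deposited read counts and FPKM per gene for the bulge, and read counts for SMART-seq. For hair germ SHERRY2 they deposited a normalized signal (counts divided by a size factor), with a log2 fold change, a Wald score and p-values per gene. The authors' score and other columns were not used for tests.

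The members and gene lists were chosen with earlier results of these data known. Counts were tested with edgeR 4.0.16 in R 4.3.3 (TMM, filterByExpr, quasi-likelihood, two-sided, Benjamini-Hochberg, threshold 0.05), each dataset alone. The unit of hair germ SHERRY2 was not counts, so limma 3.58.1 with a trend was used on log2(value + 1) over genes whose mean was 1 or more, which understates changes of low genes. Whole reads were recovered there (100% of values within 0.01 reads; size factors 0.632 to 1.36) and tested with edgeR and DESeq2 1.42.0. Alternatives were DESeq2, upper-quartile scaling, no filter, a pseudocount of 0.1, a replicate block and leaving out each library. The scripts were tested on simulated data.

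Values in every library are given for members past the threshold, for the 10 lowest p in the bulge and the 5 lowest in each hair germ dataset, and for Brca1, Brca2, Fancd2, Atm, Atr, Chek1 and Polq. Values of other genes named for contrast or for their spread between mice were chosen after they were seen. Bulge and SMART-seq levels are CPM over TMM-scaled library sizes. Promoters came from RefSeq (GRCm38.p6), whose positions do not match those in the bulge table. A gene of the other recombination list is not reported here and was left out of its counts. Depth was lowest in the hair germ SHERRY2 libraries.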

Additional observations from a re-analysis of the deposited data

Results flagged for a closer look

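Mre11a, the nuclease subunit that starts end resection, went in opposite directions in the 2 hair germ datasets. In SHERRY2 it measured 53.8 and 49.0 normalized counts in WT and 54.3 and 84.9 in cKO, a ratio of means of 1.353. In SMART-seq it measured 34.0 and 35.2 CPM in WT and 33.1 and 26.1 in the libraries labelled cKO, a ratio of 0.855. Neither pair of groups overlapped on these scales, but mouse 1 of each genotype lay close together in both datasets. In edgeR on recovered reads, which scales by TMM, the SHERRY2 log2 fold change of Mre11a was 0.12 (SE 0.52). Of all genes, 16.4% had both cKO libraries above both WT libraries in SHERRY2. In SMART-seq 12.4% had both labelled cKO libraries below, and Alkbh5 overlapped between the groups there. The difference between the datasets was not tested, and neither difference passed in its own dataset.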

How the results depend on the processing

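The number of bulge members past an adjusted p of 0.05 was 7 as reported, 19 with DESeq2, 19 with edgeR without the filter, 9 with upper-quartile scaling, and 0 to 23 when each library was left out. All 7 were among the calls of DESeq2, of the unfiltered fit and of upper-quartile scaling. The bulge median was 0.49 to 0.77 with a library left out. With 1 library left in a group, its spread is taken from the other group. The hair germ SHERRY2 median was 0.07 with edgeR on recovered reads. The SMART-seq median ranged from -0.67 to 0.12 with a library left out. Members whose genotype difference differed between bulge and hair germ SHERRY2 numbered 0 to 4 with a library left out, the 4 without hair germ SHERRY2 WT mouse 1, where 605 of all genes passed against 31 as reported. Blm in SMART-seq changed sign without WT mouse 2 (0.02, against -0.78) and was -1.85 without labelled cKO mouse 1. The cause of these changes was not tested.

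The mouse numbers are shared between genotypes only as numbers. With the number as a replicate block, 6 bulge members passed, 5 of them among the 7: Blm and Brip1 dropped out and Fanci passed. Of all genes 1.31% were higher under the block, against 1.44% without it. In both hair germ datasets and in both joint fits the block gave 0.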
